A study of Mus musculus with 8 samples.

Results

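The transcripts of Il18 and 7 related genes of the interleukin-1 (IL-1) family were followed through 8 RNA-seq libraries of T cells carrying CD4 and CD25, taken from the visceral fat and the spleens of Id2 CKO (KO) and WT mice. The members were the rows of the deposited table named Il18, Il18r1, Il18rap, Il18bp, Il1r1, Il1r2, Il1rn and Il1b, 8 of 45232 listed genes. Il18 was chosen by its TPM in these same libraries, in which it was nearly absent in WT adipose tissue alone, so its levels are a description and carry no test. The other 7 were taken as its receptor, its binding protein and genes of the IL-1 branch, and they too were chosen with earlier results of these data known.

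The groups were KO adipose, WT adipose, KO spleen and WT spleen, each with 2 libraries, called experiment 2 and experiment 3 per the file headers. All mice were of the C57BL/6 strain, and every library was made from at least 500 cells taken with the same CD4+ CD25+ gate, which is rich in regulatory T cells. The labels call the mutant genotype Id2 CKO and the cells Id2-deficient, without naming a driver or extent of the deletion, the age of the mice or whether a group's libraries are from different mice. P-values therefore measure how far these libraries differ, which may be technical. Values are TPM, a share of all transcripts corrected for their length that allows levels of different genes to be set side by side without a record of reads, so the depth is unknown. TPM columns summed to 1000000, and 13184 to 20684 genes were above 0 in a library.

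The libraries differed in what else they held. Id2, the targeted gene and an inhibitor of E-protein transcription factors, stood at 1499 and 1298 TPM in the KO adipose libraries, compared with 2249 and 3679 TPM in the WT ones. Spleen cells had 72.1 and 265 TPM when KO and 274 and 346 TPM when WT. The log2 fold change of Id2 for KO against WT was -1.04 in adipose tissue (SE 0.57, limma adjusted p = 0.751). In spleen it was -1.15 (SE 0.57), and Id2 was called in neither, so its RNA was lower in KO but not lost. Foxp3, the lineage factor of regulatory T cells, had 7.40 TPM in KO adipose 2, had 8.27 TPM in KO spleen 2 and stood at 93.5 to 266 TPM in the other 6 libraries. The 14 T cell core genes, none at 0 in any library, summed to 21585 and 7446 TPM for KO adipose cells, 16784 and 14278 TPM for WT adipose cells, and 18731 to 25554 TPM in spleen. Between KO and WT adipose tissue 13 of the 14 T cell core genes had negative log2 fold changes (median -0.5), with 0 called. Over all 13376 genes that reached 1 TPM in 2 or more libraries the median was -0.27, and 0.284% were called. Of the 14 genes, 4 were lower in both KO libraries than in both WT ones, an order that 27.5% of the 13376 showed. The 10 fibroblast and mesothelium markers summed to 746 and 3734 TPM in the KO adipose libraries, against 0.328 and 4.80 TPM in WT adipose cells. The 11 macrophage and monocyte markers summed to 11202 TPM for KO adipose 3 and to 9.41 to 615 TPM in the other 7 libraries. Adipocyte markers summed to 51.2 and 14257 TPM for KO adipose tissue and to 4.64 and 2099 TPM for WT, and to at most 5.85 TPM in spleen.

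IL-18 is a cytokine that is made as an inactive precursor and cut by caspase-1 inside inflammasomes before release. It binds the receptor chain encoded by Il18r1, which then recruits the accessory chain encoded by Il18rap, and the signal runs through MyD88 and IRAK kinases to NF-kB. IL-18 binding protein (Il18bp) is a soluble trap for the cytokine. In the IL-1 branch, IL-1 beta (Il1b) signals through Il1r1, the receptor antagonist (Il1rn) blocks that receptor, and Il1r2 encodes a decoy that binds IL-1 without signalling. Receptors of this family mark subsets of regulatory T cells, among them the IL-33 receptor ST2 (Il1rl1) on those of adipose tissue.

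Il18 and the receptor genes around which the results turn are shown by their promoters, because the Id2 protein acts by holding E proteins off a short DNA motif, the E-box (CANNTG, in capitals). The windows run from 250 bases before to 50 bases after the listed gene start and are taken from a table of RefSeq promoters of build GRCm38.p6, matched by symbol. All 8 members had an entry in it. The reads had been mapped to mm9, so these places are not those of the deposited values. Il18 is on chr9:50554450-50554749, Il18r1 on chr1:40465302-40465601, Il18rap on chr1:40515112-40515411 and Il1r2 on chr1:40085843-40086142, all on the plus strand.
Il18: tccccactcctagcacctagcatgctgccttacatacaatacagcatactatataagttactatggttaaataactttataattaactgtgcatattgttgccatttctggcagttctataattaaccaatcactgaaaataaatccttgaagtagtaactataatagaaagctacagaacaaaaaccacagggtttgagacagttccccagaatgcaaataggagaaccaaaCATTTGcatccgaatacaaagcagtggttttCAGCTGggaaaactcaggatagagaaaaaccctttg
Il18r1: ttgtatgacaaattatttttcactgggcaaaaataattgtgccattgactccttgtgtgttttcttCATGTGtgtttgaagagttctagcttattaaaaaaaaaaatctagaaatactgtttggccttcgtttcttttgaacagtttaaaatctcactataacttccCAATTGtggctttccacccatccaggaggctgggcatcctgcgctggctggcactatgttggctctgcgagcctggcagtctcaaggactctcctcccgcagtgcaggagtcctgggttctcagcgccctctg
Il18rap: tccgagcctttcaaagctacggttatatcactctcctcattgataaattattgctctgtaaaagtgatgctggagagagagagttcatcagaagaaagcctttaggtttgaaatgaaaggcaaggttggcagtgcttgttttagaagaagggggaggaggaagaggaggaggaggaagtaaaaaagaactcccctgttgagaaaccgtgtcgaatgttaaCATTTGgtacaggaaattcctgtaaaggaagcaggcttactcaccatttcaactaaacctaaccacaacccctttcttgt
Il1r2: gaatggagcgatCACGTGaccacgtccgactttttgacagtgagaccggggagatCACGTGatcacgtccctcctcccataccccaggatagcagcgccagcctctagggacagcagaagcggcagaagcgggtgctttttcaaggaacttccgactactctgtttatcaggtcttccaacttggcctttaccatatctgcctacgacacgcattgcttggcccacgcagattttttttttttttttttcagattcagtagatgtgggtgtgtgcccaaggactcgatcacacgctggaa

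The Il18 window held 2 such motifs, 1 lying 17 bases before the start and the other 14 bases after it. Il18r1, for which the table lists 3 promoters and the one at the start of the gene is shown, held 2 as well, Il18rap held 1, and Il1r2 held 2 of the same spelling. The motif reads the same on both strands, and no motifs overlapped in these 4 windows. It is also common: 72.3% of the 32851 promoters in the table held at least 1 and 39.6% held at least 2. A match is a spelling in this window and not a binding site.

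Il18 was high in KO adipose cells, intermediate in spleen cells of both genotypes and all but absent in WT adipose cells. It was at 33.3 and 63.9 TPM in KO adipose cells, against 0.474 and 0 TPM in WT adipose cells. It was at 16.6 and 20.5 TPM in KO spleen, against 22.6 and 27.2 TPM in WT spleen. The 4 groups did not overlap in any pair, in the order KO adipose, WT spleen, KO spleen, WT adipose, with means of 48.6 ± 21.7, 24.9 ± 3.23, 18.5 ± 2.75 and 0.237 ± 0.335 TPM (SD, n = 2 each). KO and WT spleen were next to each other in that order and stood 6.37 TPM apart in their means.

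On the log2(TPM + 1) scale, where a low gene appears to change less than it does, Il18 differed by 5.28 between KO and WT adipose tissue. The difference was 4.54 in experiment 2 and 6.02 in experiment 3. Among all 13376 genes that reached 1 TPM in 2 or more libraries, 7.66% lay higher in both KO adipose libraries than in both WT ones. In KO adipose tissue Il18 stood above 74.8% and 84.5% of these genes, and in WT adipose tissue above 10.9% and 0%. In spleen it stood above 70.3% and 66.1% of them in KO, and above 71.8% and 72.3% in WT.

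Between the tissues the 2 genotypes ran opposite ways. In KO, Il18 was 1.28 higher in adipose tissue than in spleen on the log2(TPM + 1) scale, whereas in WT it was lower in adipose tissue, with a log2 difference of -4.41. Within spleen the KO libraries lay below the WT ones, with a log2 difference of -0.41. It was much the same in experiment 2 (-0.43) and experiment 3 (-0.39). Of all tested genes, 13.9% lay lower in KO spleen without overlap, and their median log2 difference in spleen was -0.12 over all of them. Without overlap, 22.1% lay higher in KO adipose tissue than in KO spleen, and 15.1% lay lower in WT adipose tissue than in WT spleen. With these contrasts among those that led to the choice of Il18, nothing further is read from them.

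**Figure D1:**
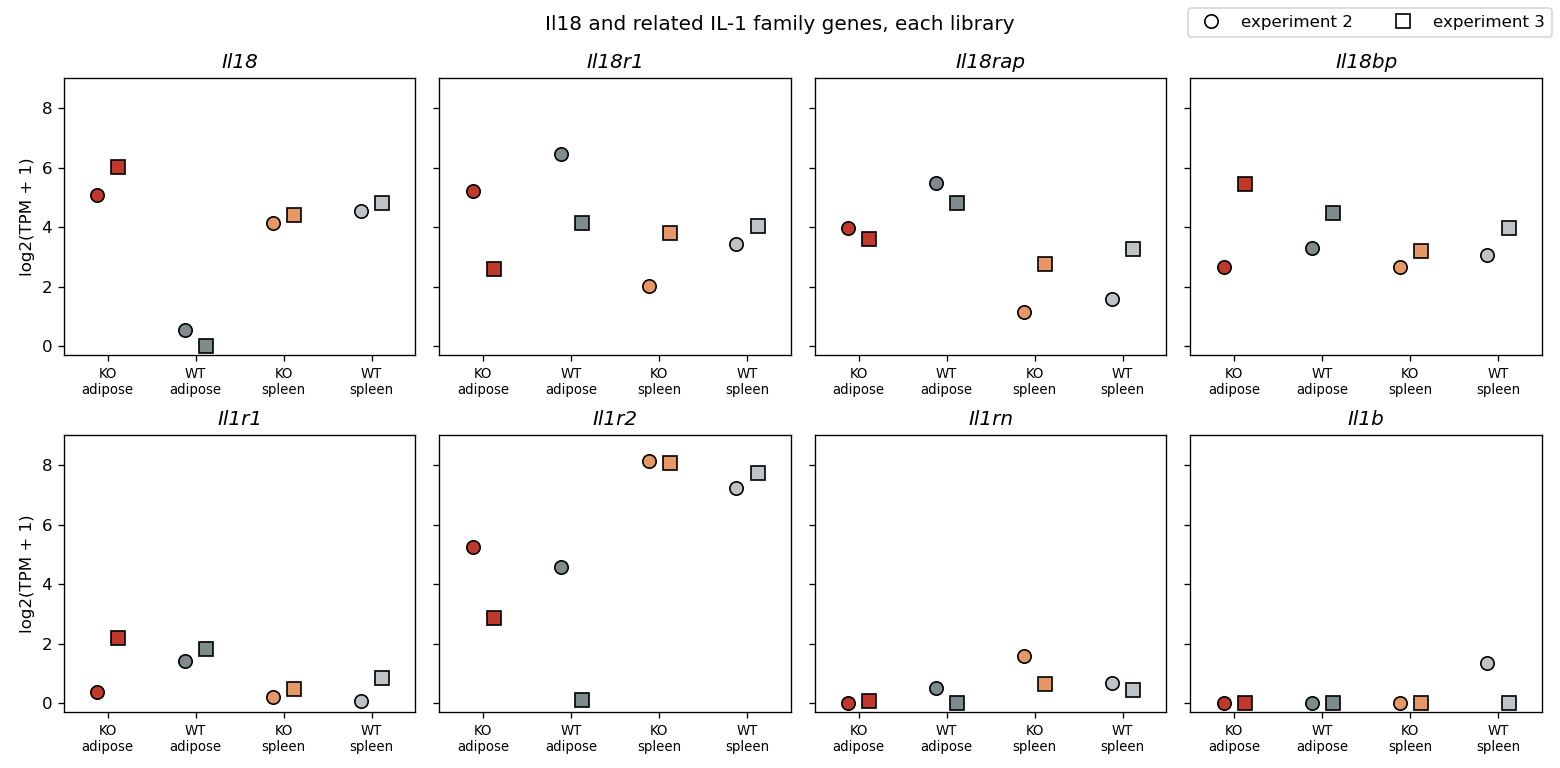
Level of the 8 genes in each library as log2(TPM + 1), with circles for experiment 2 and squares for experiment 3 and no error bars, since every library is drawn. Il18 is near 0 in both WT adipose libraries, Il1r2 is high in the 4 spleen libraries, and Il1b is at 0 in 7 of 8 libraries.

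Il18 lies next to other genes, and RefSeq places part of Bco2 and the whole of Tex12 within its span, on the opposite strand per the GENCODE M21 annotation. The sources used here do not say whether the counting used strand. Bco2 stood at 0 and 5.06 TPM in the KO adipose libraries, compared with 0.918 and 0.220 TPM in the WT ones, 0 and 3.69 TPM in KO spleen, and 3.09 and 1.96 TPM in WT spleen. Tex12 did not exceed 2.44 TPM. KO adipose 2 and KO spleen 2 had Il18 at 33.3 and 16.6 TPM with both neighbours listed at 0. The part of these neighbours in the values of Il18 was not tested.

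Markers of other cells moved with Il18 in adipose tissue. The fibroblast and mesothelium sum was high in both KO adipose libraries and low in both WT ones, the same order as Il18. Of its 10 genes, 2 and 0 were listed at 0 in KO adipose cells, and 6 and 5 in WT adipose cells. Its defining genes Dcn, a matrix proteoglycan, and Msln, mesothelin, were at 404 and 2493 TPM and at 24.7 and 150 TPM in KO adipose cells. In WT adipose tissue Dcn was at 0.101 and 3.58 TPM, and Msln was listed at 0 in both libraries. In spleen the list summed to 0.120 and 0.196 TPM in KO and to 0.358 and 0.454 TPM in WT, with Msln listed at 0 in all 4 libraries, while Il18 was at 16.6 to 27.2 TPM. Its part in the level of Il18 in KO adipose tissue was not tested, and in bulk samples fewer cells of a type and less RNA per cell cannot be told apart.

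The macrophage and monocyte sum overlapped between genotypes in adipose tissue and was lower in KO than in WT spleen, as Il18 was. It was 15.8 TPM for KO adipose 2 but 11202 TPM for KO adipose 3, against 9.41 and 21.0 TPM in WT adipose cells. In spleen it was 13.3 and 105 TPM for KO, against 615 and 157 TPM for WT. All 11 genes had positive log2 fold changes between KO and WT adipose tissue, 4 of them without overlap, against 7.66% of all tested genes. In spleen all 11 lay lower in KO without overlap, an order that 13.9% of all tested genes showed. In WT, 10 of the 11 lay lower in adipose tissue than in spleen without overlap and 1 higher, against 15.1% of tested genes lower. Lyz2, Csf1r and Adgre1, defining genes of these cells, were at 0.918, 3.25 and 0 TPM in KO adipose 2, where Il18 was at 33.3 TPM. The 10 neutrophil markers summed to 0.654 and 38.9 TPM for KO adipose cells and to 43.7 and 11.2 TPM for WT adipose cells, mostly from Mmp9, a matrix protease gene, and to at most 4.55 TPM in spleen. Of them, S100a8 and S100a9 were listed at 0 in all 4 adipose libraries. Without KO adipose 3 the log2 difference of Il18 between KO and WT adipose tissue was 4.82, and without both KO libraries of experiment 2, where Foxp3 was low, it was 5.74. The part of macrophages or neutrophils in the level of Il18 was not tested.

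**Figure D2:**
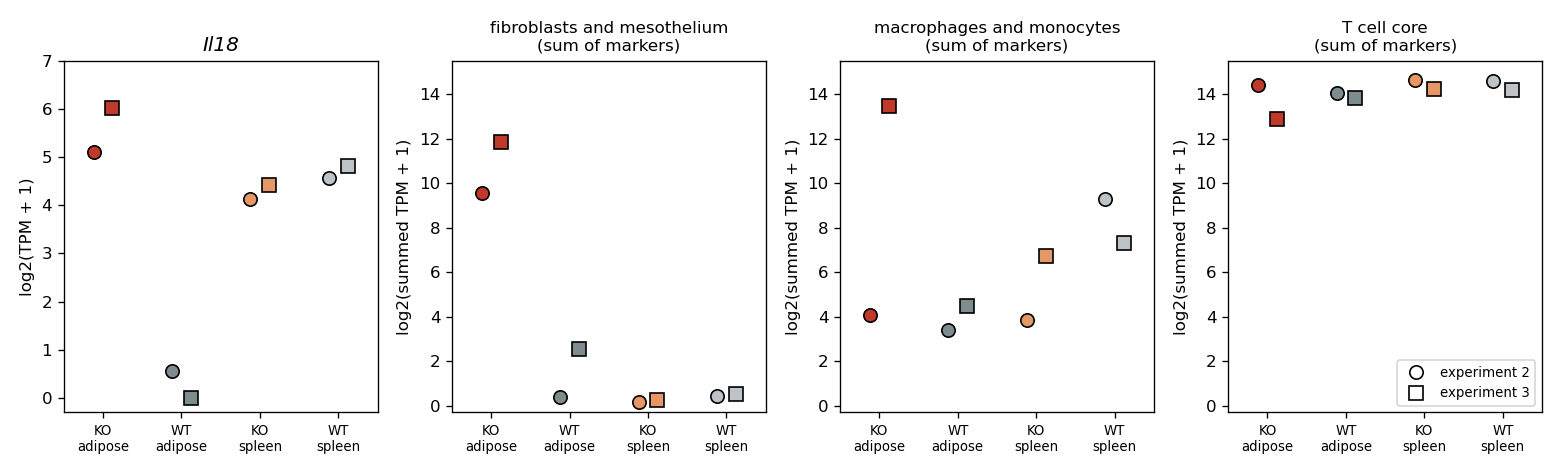
Il18 as log2(TPM + 1) beside the summed TPM of 10 fibroblast and mesothelium, 11 macrophage and monocyte and 14 T cell markers as log2(sum + 1), 1 symbol a library. In adipose tissue the fibroblast and mesothelium sum follows Il18, at 746 and 3734 TPM for KO, against 0.328 and 4.80 TPM for WT, but in spleen it is under 0.5 TPM while Il18 is at 16.6 to 27.2 TPM.

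A likeness rule ranked genes by Pearson's r with Il18 of log2(TPM + 1) over the 8 libraries. It covered 10031 tested genes with at least 5 TPM in 1 library or more. Predicted genes, clones, pseudogenes, antigen receptor segments and date-like names had been left out. Among the 10031 the closest to Il18 were Pon3 (r = 0.943), Zc4h2 (0.940), Nrbp2 (0.935), Medag (0.930) and Tctex1d4 (0.920). Pon3, which encodes a paraoxonase lactonase, stood at 18.9 and 23.1 TPM in the KO adipose libraries, compared with 6.06 and 2.99 TPM in the WT ones. Its 4 spleen libraries lay between 9.14 and 12.7 TPM. Medag, an adipogenesis gene, stood at 3.30 and 7.89 TPM in the KO adipose libraries, compared with 0.0147 and 0 TPM in the WT ones. All 5 were lowest in WT adipose tissue, an order that the rule favours, because Il18 itself was lowest there. The 8 points of each correlation share libraries and their cell makeup, and the coefficients rank genes without a test.

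Both chains of the IL-18 receptor were expressed in every library, and both had their highest group mean in WT adipose tissue. Il18rap, the accessory chain, stood at 14.9 and 11.3 TPM in the KO adipose libraries, compared with 43.4 and 27.3 TPM in the WT ones. In spleen the values were 1.23 and 5.85 TPM for KO and 2.00 and 8.77 TPM for WT. Its adipose libraries did not overlap between the genotypes, and all 4 lay above all 4 spleen libraries.

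Il18r1, the chain that binds the cytokine, stood at 36.6 and 5.12 TPM in the KO adipose libraries, compared with 86.3 and 16.7 TPM in the WT ones. The spleen libraries had 3.07 and 12.9 TPM (KO) and 9.93 and 15.3 TPM (WT). In both adipose groups experiment 2 was far above experiment 3, and in both spleen groups it was below. The level in KO adipose 3, 5.12 TPM, lay under that of 3 of the 4 spleen libraries. KO adipose 3 also had the lowest T cell core sum, 7446 TPM, and the part of its cell makeup in the Il18r1 and Il18rap values was not tested.

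None of these receptor differences passed the test. Groups were compared with limma on log2(TPM + 1), and the Benjamini-Hochberg adjustment covered all 13376 tested genes, at a threshold of 0.05. For KO against WT in adipose tissue Il18rap had a log2 fold change of -1.34 (SE 0.75, limma adjusted p = 0.751), and Il18r1 one of -1.38 (SE 1.05, limma adjusted p = 0.788). Il18rap was lower in KO in both experiments (-1.48 and -1.21), as was Il18r1 (-1.22 and -1.54). The Il18r1 value depends on single libraries: leaving out KO adipose 2 gave -2.69 and leaving out KO adipose 3 gave -0.067, while it was -0.23 when WT adipose 2 was dropped and -2.53 when WT adipose 3 was. Both KO libraries lay under both WT libraries in 27.5% of all tested genes, and the median log2 fold change of all tested genes was -0.27, so a place below WT in adipose tissue was common.

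Between tissues in WT, Il18rap was higher in adipose tissue by 2.71 on the log2 scale (SE 0.75, limma adjusted p = 0.233), higher in 2 of 2 libraries. Il18r1 was higher by 1.56 (SE 1.05, limma adjusted p = 0.555), by 3.00 in experiment 2 and 0.12 in experiment 3. Without WT adipose 2 it was 0.41, and without WT adipose 3 it was 2.71. In WT, 37.8% of tested genes were higher in both adipose libraries than in both spleen libraries. In KO, Il18rap was higher in adipose tissue by 1.84 (SE 0.75, limma adjusted p = 0.354), where 22.1% of genes did not overlap in that direction, and by 1.03 without KO spleen 2. The adjusted p of Il18rap ranged from 0.0828 to 0.985 over the alternatives in WT and from 0.208 to 0.951 in KO.

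The balance of the chains also differed between experiments. The ratio of Il18rap to Il18r1 TPM was 0.407 in KO adipose 2 and 2.20 in KO adipose 3, and 0.503 in WT adipose 2 and 1.63 in WT adipose 3. In spleen it stayed between 0.202 and 0.572. Both experiment 3 adipose libraries thus held more of the accessory chain than of the binding chain, in KO and in WT alike.

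Il18bp, the soluble trap, was present at 5.32 to 42.8 TPM in all libraries. It stood at 5.32 and 42.8 TPM in the KO adipose libraries, compared with 8.91 and 21.3 TPM in the WT ones. KO spleen had 5.34 and 8.24 TPM, and WT spleen 7.36 and 14.9 TPM. The 2 KO adipose libraries enclosed both WT ones. The highest value was in KO adipose 3, where the macrophage and monocyte sum was 11202 TPM, and the part of those cells in it was not tested. Il18 exceeded Il18bp in 6 libraries, both KO adipose libraries and all 4 spleen libraries, and by most in KO adipose 2, at 6.25 times its TPM. In WT adipose 2 the ratio was 0.0532, and in WT adipose 3 Il18 was listed at 0.

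Il1r2, the IL-1 decoy receptor, was the highest of the 8 genes in spleen and far lower in adipose tissue. It stood at 37.0 and 6.38 TPM in the KO adipose libraries, compared with 22.8 and 0.0815 TPM in the WT ones. In spleen the values were 279 and 269 TPM for KO and 149 and 213 TPM for WT. All 4 spleen libraries lay above all 4 adipose ones, and in spleen Il1r2 stood above 93.0% to 96.4% of tested genes.

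The tissue difference of Il1r2 did not pass over all genes. In WT the log2 fold change of adipose tissue against spleen was -5.14 (SE 1.29, limma adjusted p = 0.192), lower in 2 of 2 libraries, where 15.1% of tested genes did not overlap in that direction. In KO it was -4.04 (SE 1.29, limma adjusted p = 0.243), lower in 2 of 2 libraries, with 14.6% of genes not overlapping in that direction. The WT value depends on which adipose library is used. Without WT adipose 2 it was -7.37 (limma adjusted p = 0.0274, from WT adipose 3 alone), and without WT adipose 3 it was -2.91 (adjusted p = 0.562). The KO value passed without WT adipose 3 (limma adjusted p = 0.0496), a library outside that comparison that enters the estimate of the spread. Over the alternatives the adjusted p ran from 0.0274 to 0.790 in WT and from 0.0496 to 0.807 in KO.

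Between genotypes, both KO spleen libraries had more Il1r2 than both WT ones, by 0.62 on the log2 scale (SE 1.29, limma adjusted p = 1), and 5.93% of tested genes showed that order. In adipose tissue KO differed from WT by 1.72 on the log2 scale (SE 1.29, limma adjusted p = 0.787) with overlapping libraries. It turned to -0.51 without WT adipose 3, the library at 0.0815 TPM. Gm16894, an antisense gene at the start of Il1r2 in GENCODE M21, was at 0 to 10.6 TPM.

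Il1r1, the signalling receptor for IL-1, was low throughout. It stood at 0.302 and 3.63 TPM in the KO adipose libraries, compared with 1.66 and 2.55 TPM in the WT ones. Spleen cells had 0.154 and 0.391 TPM when KO and 0.0487 and 0.795 TPM when WT. It reached 1 TPM in 3 libraries, all from adipose tissue, and so entered the test through the tissue where it was higher. Its log2 fold change of adipose tissue against spleen in WT was 1.16 (SE 0.69, limma adjusted p = 0.504). The decoy exceeded the signalling receptor in 7 of 8 libraries, and the ratio of Il1r2 to Il1r1 TPM was 122 and 1.75 in KO adipose tissue, 13.7 and 0.0319 in WT adipose tissue, and between 267 and 3060 in spleen.

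The IL-1 ligand and its antagonist were close to or at 0. Il1b was listed at 0 in 7 libraries and at 1.55 TPM in WT spleen 2. The macrophage and monocyte sum was 615 TPM in WT spleen 2 and 11202 TPM in KO adipose 3, where Il1b was listed at 0. The part of those cells in the Il1b value was not tested. Il1rn stood at 0 and 0.0488 TPM in the KO adipose libraries, compared with 0.420 and 0 TPM in the WT ones, 2.04 and 0.569 TPM in KO spleen, and 0.596 and 0.363 TPM in WT spleen. Neither reached 1 TPM in 2 libraries, so 6 of the 8 members were tested, Il18 included.

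Of the 5 tested members other than Il18, limma called 0 in each of the 5 comparisons. Between KO and WT adipose tissue 0.284% of all tested genes were called (0.277% higher and 0.00748% lower in KO), and the members' adjusted p ran from 0.751 to 0.976, with 0 at an unadjusted p under 0.05. In spleen 0% of genes were called (0 genes, with 64 at an unadjusted limma p under 0.05), and each of these members had an adjusted p of 1, again with 0 at an unadjusted p under 0.05. For adipose tissue against spleen 0.164% were called in WT (0.135% higher and 0.0299% lower in adipose tissue) and 1.08% in KO (0.927% higher and 0.15% lower), and in each case 2 members, Il18rap and Il1r2, had an unadjusted p under 0.05. With the replicate block the calls over all genes were 78 in place of 22 in WT and 236 in place of 144 in KO. For the genotype by tissue interaction 0.0299% were called (4 genes, and 0 with the replicate block), and each of the 5 members had an adjusted p of 1, with 0 at an unadjusted p under 0.05. The 2 libraries a group share 1 estimate of spread across groups, and a p above the threshold does not show that the levels were alike.

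Il1r2, Il1r1, Il1rl2, Il1rl1, Il18r1 and Il18rap neighbour each other in this order on chromosome 1 in RefSeq, with no other protein-coding gene between them. Their levels did not all run in parallel, and between the tissues Il1r2 stood apart from the rest. In WT, Il1r1, Il1rl2, Il1rl1, Il18r1 and Il18rap were higher in both adipose libraries than in both spleen libraries, as were 37.8% of tested genes. In KO the libraries of Il1r1 and Il18r1 overlapped between the tissues. At one end Il1r2 was the spleen gene of the group, whereas at the other end Il18rap was higher in all 4 adipose libraries. Between them Il1rl2, a receptor for IL-36, was at 1.64 and 1.97 TPM in KO adipose cells and 2.02 and 2.07 TPM in WT adipose cells, against at most 0.304 TPM in spleen. Il1rl1, the IL-33 receptor ST2, stood at 60.6 and 80.4 TPM in the KO adipose libraries, compared with 23.4 and 295 TPM in the WT ones, and its spleen values were 1.03 to 8.37 TPM. Within WT adipose tissue, Il18r1 and Il1r2 were higher in experiment 2 and Il1rl1 in experiment 3.

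**Figure D3:**
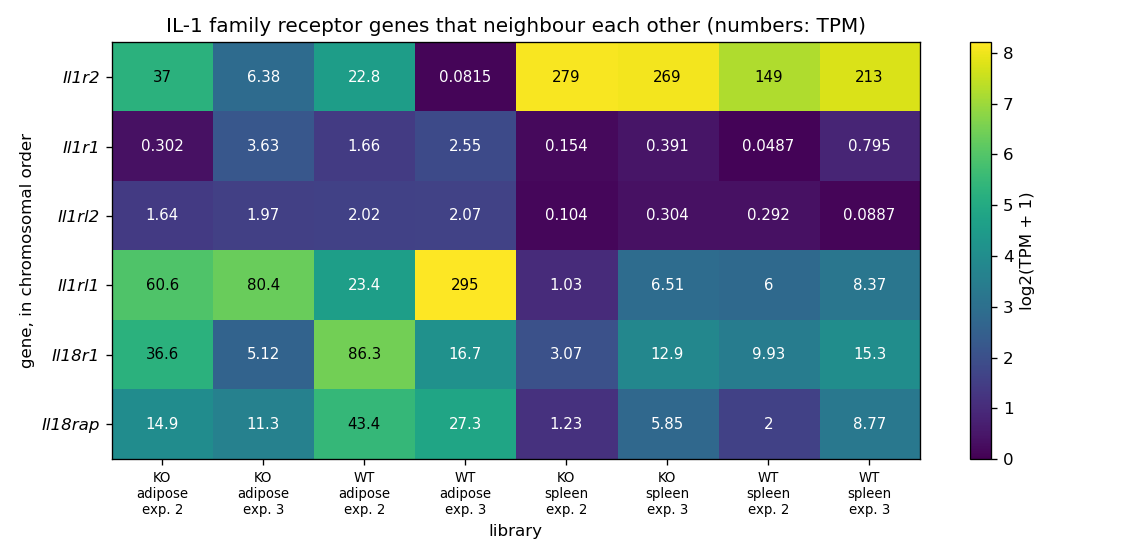
TPM (printed) and log2(TPM + 1) (colour) of the 6 neighbouring receptor genes in each library, with rows in chromosomal order. Il1r2 is brightest in the 4 spleen columns (149 to 279 TPM), and Il1rl2, Il1rl1 and Il18rap are higher in all 4 adipose columns than in all 4 spleen columns.

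The rest of the pathway was read from lists of other ligands, receptors, signal genes and maturation genes. Of 7 other ligands in the table, 4 were listed at 0 in every library and 1, Il1a, was tested. Il33, the ligand of ST2, was at 4.19 and 0.685 TPM in KO adipose cells and listed at 0 in the other 6 libraries. In those 2 KO libraries the fibroblast and mesothelium markers summed to 746 and 3734 TPM, against 0.328 and 4.80 TPM in WT adipose cells. The part of such cells in the Il33 values was not tested. Of 6 other receptors 4 were tested and limma called 0 in any comparison, with adjusted p-values over all genes. Sigirr, an inhibitory receptor of the family, was high everywhere, at 74.7 to 117 TPM in adipose tissue and 49.4 to 112 TPM in spleen.

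The machinery that matures IL-18 was present, while the sensor gene Nlrp3 was at or near 0. Casp1, which encodes the protease that cuts the precursor, stood at 255 and 95.7 TPM in the KO adipose libraries, compared with 117 and 192 TPM in the WT ones. The spleen libraries had 178 and 93.0 TPM (KO) and 139 and 93.3 TPM (WT). Pycard, the adaptor that recruits it, was at 186 to 395 TPM, and Gsdmd, the pore protein cut with it, at 32.9 to 91.5 TPM. Nlrp3 did not exceed 1.13 TPM, and Aim2, a sensor of DNA, was at 6.36 to 16.9 TPM. Of 9 tested genes of this list limma called 0 in any comparison, and 4 were lower in both KO adipose libraries than in both WT ones, an order that 27.5% of all tested genes showed.

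Most signal genes had lower values in KO than in WT adipose tissue, and none passed the test. Of 11 tested adaptors and kinases 9 had negative log2 fold changes between KO and WT adipose tissue (median -0.66, against -0.27 over all tested genes), 7 did not overlap, with KO lower, and 0 were called. Of 13 tested NF-kB genes 13 were negative (median -0.865), 8 did not overlap, with KO lower, and 0 were called. Over all tested genes 27.5% lay lower in KO without overlap and 0.284% were called. Under quantile normalization the medians were -0.36 and -0.62, against -0.089 over all genes. The T cell core genes also ran lower in KO adipose tissue, with 13 of 14 negative. Their median was -0.5, and -0.415 under quantile normalization. The part of the cell makeup of the libraries in the signal gene values was not tested. Myd88, the adaptor next to the receptors, stood at 80.2 and 61.0 TPM in the KO adipose libraries, compared with 103 and 85.3 TPM in the WT ones. For adipose tissue against spleen in WT 12 of the 13 NF-kB genes were positive (median 0.83, against 0.32 over all tested genes), and in KO 9 of 13 (median 0.20, against 0.16). Under quantile normalization these medians were 0.37 in WT, against -0.0033 over all genes, and -0.00043 in KO, against -0.11.

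Tnfaip3, which encodes the NF-kB inhibitor A20, was the 1 pathway gene that passed. It stood at 74.5 and 109 TPM in the KO adipose libraries, compared with 188 and 242 TPM in the WT ones. Spleen cells had 9.19 and 11.9 TPM when KO and 5.97 and 17.2 TPM when WT. It was higher in adipose tissue than in spleen by 2.99 in KO (SE 0.50, limma adjusted p = 0.0385) and by 4.25 in WT (SE 0.50, limma adjusted p = 0.0216), in 2 of 2 libraries each. These calls ended without several single libraries: in WT without either WT adipose library, either WT spleen library or either KO spleen library (adjusted p = 0.0501 to 0.231), and in KO without either WT adipose library, KO adipose 3 or either KO spleen library (0.0556 to 0.317). In both they ended without a filter on low values (0.121 in KO and 0.158 in WT). In KO the call also ended with a pseudocount of 0.1 (0.0576), with the 4 KO libraries alone (0.0721) and without both KO libraries of experiment 2 (0.0987). Tissue handling ahead of sorting and the tissue itself cannot be told apart.

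**Figure D4:**
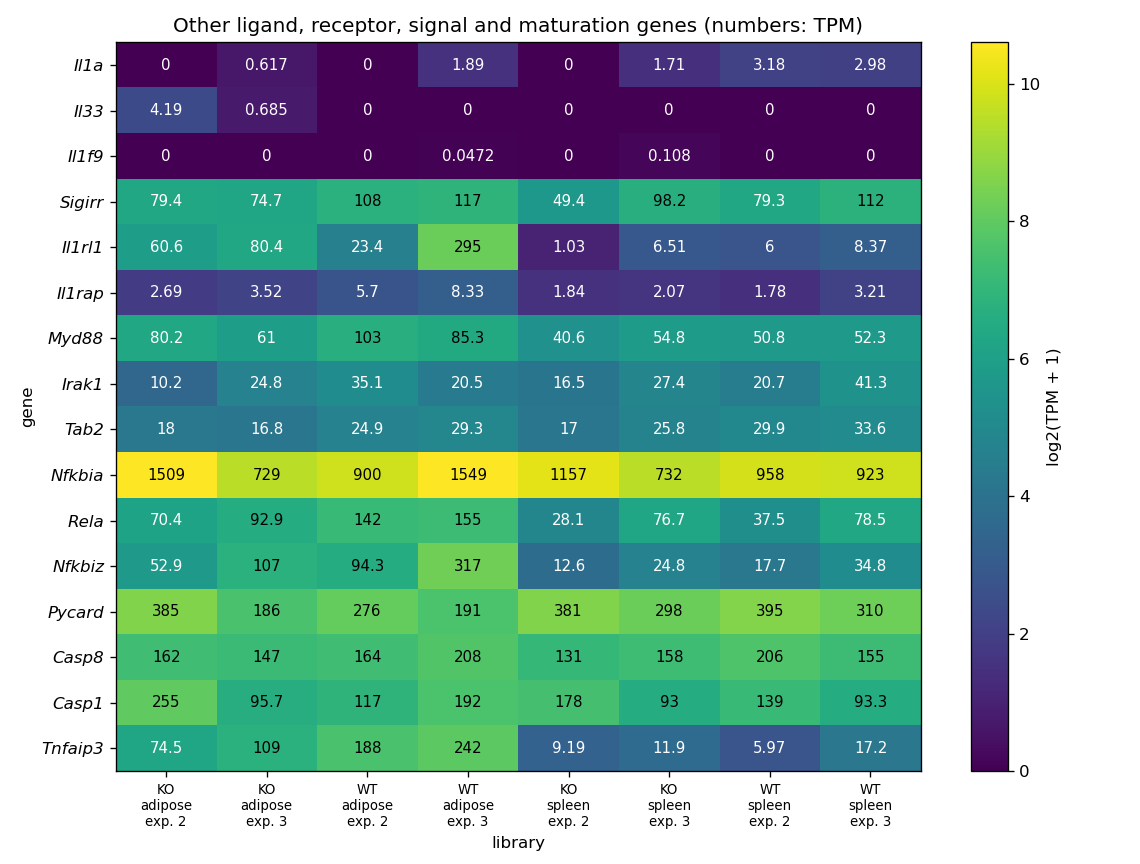
TPM (printed) and log2(TPM + 1) (colour) in each library for the 3 genes of highest mean level in each of 5 pathway lists, and Tnfaip3. Nfkbia, Pycard, Casp8 and Casp1 are bright in every column, and Tnfaip3 is at 74.5 to 242 TPM in adipose tissue and 5.97 to 17.2 TPM in spleen.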

How the data were processed

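Per the labels' protocols, a SMARTer v4 kit for very small inputs gave the cDNA of the sorted cells, and Nextera XT the libraries. The deposited table holds TPM, 1 column a library, a unit identified from the values because each column sums to 1000000. The build was mm9, per the submitters' processing notes. For the aligner, counter and annotation, names were not given in the sources used here. Genes are listed without positions.

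The 13376 of 45232 genes that reached 1 TPM in 2 or more libraries were tested with limma 3.58.1 in R 4.3.3 on log2(TPM + 1), with a trend in the variance and 4 residual degrees of freedom. All 8 libraries entered 1 fit of 4 groups. The filter was applied again to the libraries left in each fit that used fewer. Benjamini-Hochberg adjustment was over all genes tested, with a threshold of 0.05. Each SE is the moderated one that limma gives. The fits were tested on simulated data.

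The members, gene lists and tests were chosen with earlier results of these data known. Named are the 8 members, Id2, Foxp3, the genes most like Il18, the list genes past the threshold or of highest mean, and the defining markers of other cells. Aim2, Gsdmd, Nlrp3, Mmp9, Il1rl2, Bco2, Tex12 and Gm16894 were named after their values were seen.

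Libraries of the same number deviated together: subtracting experiment 2 from experiment 3 in each group gave values that correlated between groups, over tested genes, at r = 0.128 to 0.382 in all 6 pairs. The r was 0.351 between the adipose groups and 0.382 between the spleen groups. Between groups of different tissue it was lower, at 0.128 to 0.185, so the sign of pairing was weaker there. On this ground, and because the file headers use the word experiment, the numbers were read as pairing the samples. The main fits did not use this pairing, and a fit with the replicate number as a block was an alternative. With the block, the limma adjusted p between the WT tissues was 0.0993 for Il1r2 and 0.131 for Il18rap. Between the KO tissues it was 0.156 for Il1r2 and 0.252 for Il18rap. The other alternatives were a pseudocount of 0.1, no filter, quantile normalization, the 4 libraries compared alone, and each library left out. Leaving out both KO libraries of experiment 2 was added after their low Foxp3 was seen.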

Additional observations from a re-analysis of the deposited data

Results flagged for a closer look

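Il18 moved in opposite directions with genotype in the 2 tissues: both KO libraries lay above both WT libraries in adipose tissue (33.3 and 63.9 TPM against 0.474 and 0 TPM) and below both in spleen (16.6 and 20.5 TPM against 22.6 and 27.2 TPM). The log2 difference in adipose tissue minus that in spleen was 5.69. This difference was not tested, because Il18 was chosen from these same values. Of all tested genes, 7.66% lay higher in KO without overlap in adipose tissue, and 13.9% lay lower in KO without overlap in spleen.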

How the results depend on the processing

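Of the 5 tested members besides Il18, which carries no test here, 0 were called in the main fits, with the replicate block, a pseudocount of 0.1, no filter, quantile normalization, the 4 libraries compared alone or without both KO libraries of experiment 2. Leaving out 1 library at a time gave 0 to 1 members called between the tissues of either genotype (Il1r2 each time), and 0 in the other comparisons. The Il1r2 log2 fold change for KO against WT in adipose tissue ran from -0.51 (without WT adipose 3) to 3.95 (without WT adipose 2).

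The number of genes called by limma moved more. For KO against WT in adipose tissue it was 38, and it was 13 with a pseudocount of 0.1, 72 after quantile normalization, 129 without both KO libraries of experiment 2, 14 to 271 with 1 library left out, and 0 with the 4 libraries alone (679 at an unadjusted p under 0.05). In spleen it was 0 (64 had an unadjusted p under 0.05), but 2 with the 4 libraries alone. Between WT adipose tissue and WT spleen it was 22, and 78 with the replicate block, 217 with the 4 libraries alone, 153 without both KO libraries of experiment 2, 0 to 175 with 1 library left out (0 without WT spleen 2, when 642 had an unadjusted p under 0.05). Without a filter it was 0 (1961 at an unadjusted p under 0.05). Between the KO tissues it was 144, and 70 with a pseudocount of 0.1, 63 without a filter, 236 with the replicate block, 231 after quantile normalization, 46 with the 4 libraries alone, 71 without both KO libraries of experiment 2 and 1 to 710 with 1 library left out. For the interaction it was 4, and 10 after quantile normalization, 21 without both KO libraries of experiment 2, 0 to 79 with 1 library left out, and 0 with a pseudocount of 0.1, without a filter or with the replicate block (408, 661 and 661 at an unadjusted p under 0.05). The cause was not tested. The replicate block changed the call of no member and not that of Tnfaip3. The log2 differences of Il18 depend on the pseudocount, since it is near 0 in WT adipose tissue: with 0.1 they were 7.59 for KO against WT in adipose tissue, -6.70 between the WT tissues and 8.02 for the interaction.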
